A study of Mus musculus with 6 samples.

Results

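The unfolded protein response and the cytosolic heat shock response were followed through 37 genes, matched by their listed symbols among the 49997 genes of the deposited table, and all 37 were abundant enough to be tested. Of these, 28 belong to the endoplasmic reticulum (ER) and 9 to heat shock. The data are polyadenylated RNA sequencing of whole mouse retina, 1 retina per library, with 3 libraries of the genotype Samd7 knockout (-10A) taken at postnatal day 31 and 3 libraries of wild-type c57Bl6/j taken at postnatal day 36, all labelled male. Samd7 encodes a sterile alpha motif protein of photoreceptors, and the series asks how retinal transcripts differ between the knockout and wild type. Age and genotype cannot be told apart in this design, and since no label says whether the 3 retinas of a group came from different mice, a p-value refers to the scatter among these retinas alone. Whole retina holds many cell types, and in such bulk RNA fewer cells of a type and less RNA per cell cannot be told apart.

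Proteins that enter the secretory route fold in the ER, and photoreceptors send large amounts of opsin through it. When unfolded protein builds up there, a trio of membrane sensors answers: ATF6 is cut to release a transcription factor for chaperone genes, IRE1 (gene Ern1) splices the Xbp1 messenger RNA, and PERK (gene Eif2ak3) phosphorylates the initiation factor eIF2 alpha, which lowers protein synthesis while favouring translation of ATF4. The heat shock response, driven by HSF1, is the matching programme of the cytosol. Genes were put in the arm most often credited with them in mammalian cells, although the ATF6 and IRE1 arms share targets.

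Reads recovered from the normalized values summed to 44231112 to 53068288 per library under the Samd7 KO label and to 47727617 to 62813549 in wild type. Samd7 itself was higher, not lower, under the KO label, with means of 49508 ± 7225 and 7537 ± 1029 normalized reads (SD over 3 libraries in each group; adjusted p = 1.54e-08, limma), so directions are given for retinas labelled Samd7 KO. Defining retinal markers were present in all libraries. Of 8 rod markers, 5 were lower (summed level 2861190 to 3134580 against 4458860 to 4856320 normalized reads in wild type), and of 10 cone markers, 5 were higher and 1 lower (679711 to 716944 against 167850 to 174946). Of 8 microglia markers, 7 were higher (5434 to 6055 against 3409 to 3914), as were 5 of 5 red blood cell markers (5661 to 8293 against 1467 to 2232), while 7 of 10 pigment epithelium markers were lower. The pigment epithelium sum (26472 to 30989 against 30696 to 35455) is mostly Rlbp1, which Müller glia also express; the other 9 summed to 1276 to 2353 against 3950 to 6354. Of 9 Müller glia markers, 3 were higher and 1 lower (193274 to 207522 against 195952 to 221401), with the gliosis marker Gfap 3.72-fold higher (limma adjusted p = 5.15e-06) and Glul 1.44-fold lower (limma adjusted p = 4.07e-04), both named after their values were seen. In endothelium 1 of 6 was higher (5837 to 6764 against 4026 to 5036), and in B and plasma cells 1 of 5 (928 to 1010 against 637 to 684). Lens markers summed to 166 to 265 in the KO-labelled libraries and 204 to 7822 in wild type, the top value being wild type 3. No marker of these lists was at 0 in all libraries. The part of these cell types in the results that follow was not tested.

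In retinas labelled Samd7 KO, 7 of 14 ER folding genes rose while the transcription factor Atf4 and its target Trib3 fell, and the 3 heat shock genes that passed went both ways. A gene was called when its limma adjusted p (Benjamini-Hochberg, over all 20277 tested genes) was under 0.05. Of the 37 members, 10 were called higher and 3 lower, against 6.79% and 5.21% of all tested genes, and 13 of 37 were called in all (35.1%, against 12%). Members are well expressed genes, and among the 11451 genes with a mean level at or above that of the lowest member, Chac1, 15.2% were called. The median log2 fold change (KO label over wild type, on the log2(normalized reads + 1) scale throughout) was 0.11 over the members and 0.0018 over all tested genes. Groups did not overlap for 23 of 37 members, against 31.1% of all tested genes. The members called higher in the ER arms numbered 8, but 5 when KO 3, wild type 2 or wild type 3 was left out; the members called lower numbered 3, but 5 without KO 1.

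**Figure D1:**
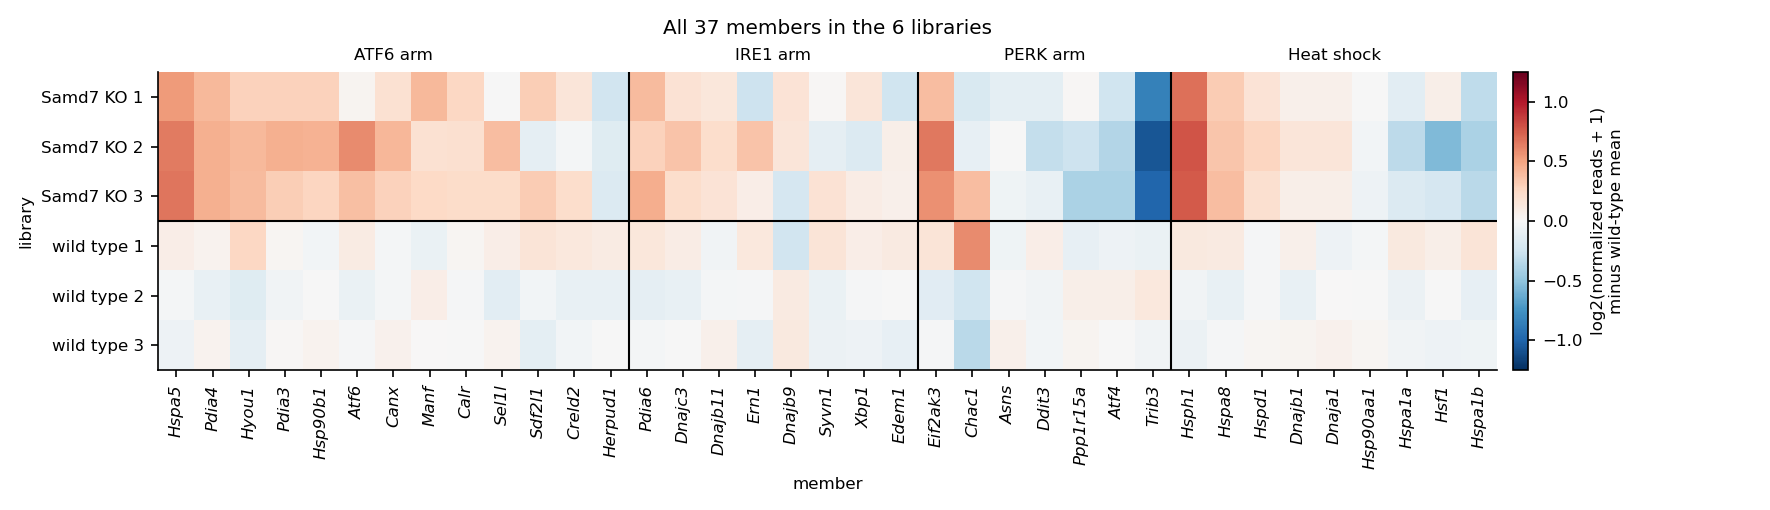
Each column is a member and each row a library; colour gives log2(normalized reads + 1) minus the wild-type mean of that gene. Most ATF6-arm columns are red in the 3 libraries labelled Samd7 KO, Trib3 is the darkest blue column and Hsph1 the darkest red one of the heat shock block.

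Promoter letters were searched next, and a minority of the members held them. The members were listed as genes of these same responses, so a higher share of such letters among them is a description and not a test. RefSeq promoters (GRCm38.p6, 250 bases before to 50 after the start) matched 31 of 37 members; Atf6, Hyou1, Manf, Hsf1, Hspa8 and Hsp90aa1 had none in the table. The ER stress response element ERSE, known as a binding site of ATF6 together with the CCAAT factor NF-Y, was searched as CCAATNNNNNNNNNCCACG on both strands. It was found in 8 of 31 members (25.8%), against 0.137% of the 27025 genes of the table. All 8 were ER folding or disposal genes, 5 of the 10 ATF6-arm members searched and 3 of the 8 IRE1-arm members, and 0 of 7 PERK-arm and 0 of 6 heat shock members had the letters. Of the 8, 5 were called higher (Hspa5, Hsp90b1, Calr, Canx and Pdia6) and 3 did not pass (Creld2, Dnajc3 and Syvn1). Their median log2 fold change was 0.28. Of the 23 members with a promoter and no match, 4 were called higher and 3 lower, with a median of 0.037. Those 23 include all 7 PERK-arm and all 6 heat shock members searched, so the letters and the arm cannot be told apart in this contrast. A match is a run of letters, not a shown binding site.

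The matches are shown because 5 of the 7 called folding genes hold them, all but Pdia3 and Pdia4; each line runs 5′ to 3′ on the strand of the gene, with the ERSE letters in capitals and 10 flanking bases on each side. Hsp90b1 has a pair of them. In Calr, Creld2 and the second site of Hsp90b1 the element lies on the opposite strand and reads CGTGG first.
Hspa5, chr2:34772015-34772053, plus strand: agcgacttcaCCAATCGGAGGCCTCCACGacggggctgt
Hsp90b1 distal, chr10:86705628-86705666, minus strand: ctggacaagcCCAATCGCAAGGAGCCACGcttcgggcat
Hsp90b1 proximal, chr10:86705523-86705561, minus strand: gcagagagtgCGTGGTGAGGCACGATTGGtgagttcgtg
Calr, chr8:84847065-84847103, minus strand: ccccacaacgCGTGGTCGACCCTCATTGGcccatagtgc
Canx, chr11:50325790-50325828, minus strand: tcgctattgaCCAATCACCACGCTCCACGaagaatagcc
Pdia6, chr12:17266481-17266519, plus strand: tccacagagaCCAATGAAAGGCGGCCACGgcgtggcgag
Dnajc3, chr14:118937817-118937855, plus strand: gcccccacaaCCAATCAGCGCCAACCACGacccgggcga
Creld2, chr15:88819510-88819548, plus strand: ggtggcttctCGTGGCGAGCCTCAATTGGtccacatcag
Syvn1, chr19:6046522-6046560, plus strand: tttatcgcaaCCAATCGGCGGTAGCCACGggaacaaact

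Among the sensors, Eif2ak3 rose and the others did not pass. Eif2ak3, the PERK kinase (chromosome 6, 70844484 to 70905241, GRCm38), was measured at 1775, 2151 and 2028 normalized reads in libraries 1, 2 and 3 under the KO label and at 1522, 1229 and 1344 in wild type 1, 2 and 3. All KO-labelled values lay above all wild-type values, a 1.45-fold rise (0.54 ± 0.11 SE on the log2 scale, limma adjusted p = 0.00581). Of its exonic bases, 8.05% overlap the antisense gene Gm43292, and without a stated strand setting such reads cannot be assigned. Atf6 (chromosome 1, 170704457 to 170868585) had 2063, 3037 and 2619 against 2165, 1907 and 2000. KO 1 fell inside the wild-type range, so the groups overlapped (log2 fold change 0.33, with 0.06 to 0.60 as 95% interval; limma adjusted p = 0.114), and without KO 1 the gene was called (log2 fold change 0.48, limma adjusted p = 0.00622). Ern1, the lowest member per kilobase of transcript in wild type, was nearly level between groups with a wide interval (log2 fold change 0.06, 95% interval -0.29 to 0.41). Its KO-labelled values of 269, 413 and 343 spread around the wild-type values of 353, 319 and 297. For Xbp1, the factor made when IRE1 splices its messenger RNA, the interval was narrower (log2 fold change 0.02, 95% interval -0.17 to 0.22), and these gene totals hold spliced and unspliced RNA together.

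The 14 ER folding members lay on the higher side. All 14 had a log2 fold change above 0, 7 were called higher and 0 lower, and 11 had groups that did not overlap; at an unadjusted p under 0.05, limma-trend and edgeR each had 11 higher and 0 lower, and DESeq2 called 9 higher and 0 lower. No share of all tested genes is given at this unadjusted cut, so 11 of 14 has no background beside it. The same holds for later counts at this cut. At the adjusted threshold of limma, 50% of the 14 were called, against 12% of all tested genes. Of all 20277 tested genes, 10191 had a log2 fold change above 0, and 31.1% had groups that did not overlap. The median log2 fold change of the 14 was 0.29. Dnajb9, near 0, turned to -0.14 with limma-voom. Hspa5 (chromosome 2, 34772090 to 34776529), which encodes BiP, the ER Hsp70 that also holds the sensors inactive, led the group. It had 11192, 12171 and 12347 normalized reads in the KO-labelled libraries and 8248, 7658 and 7410 in wild type, a gap between the groups far wider than the spread inside either. This was a 1.53-fold rise (0.62 ± 0.07 SE on the log2 scale, limma adjusted p = 1.28e-04).

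Protein disulfide isomerases, which form and reshuffle disulfide bonds, followed. Pdia4 (chromosome 6, 47796141 to 47813512) had 3788, 3878 and 3883 normalized reads against 2939, 2684 and 2949. The KO-labelled libraries were nearly identical to each other, and the rise was 1.35-fold (0.43 ± 0.08 SE on the log2 scale, limma adjusted p = 0.00261). Pdia6 (chromosome 12, 17266589 to 17284785) had 9950, 9221 and 10351 against 8328, 7004 and 7422. Wild type 1 was the highest of its group and still below all KO-labelled values (1.30-fold, log2 fold change 0.38, limma adjusted p = 0.00951); the call ended without KO 3 (limma adjusted p = 0.0558), wild type 2 (0.0558) or wild type 3 (0.0594). Pdia3, the isomerase that works with the lectin chaperones, had 9943, 11053 and 10050 against 8271, 7923 and 8251 (1.27-fold, log2 fold change 0.34, limma adjusted p = 0.00641).

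The general ER Hsp90, Hsp90b1 (chromosome 10, 86690841 to 86705444), had 20608, 22924 and 20339 normalized reads against 16536, 16800 and 17405. Its groups stood well apart, a 1.26-fold rise (0.33 ± 0.07 SE on the log2 scale, limma adjusted p = 0.00673); 10.3% of its exonic bases overlap the antisense gene 1810014B01Rik. The lectin chaperones that hold newly made glycoproteins changed by less. Canx, calnexin of the membrane, had 14165, 16651 and 15175 against 12259, 12213 and 12888 (1.23-fold, limma adjusted p = 0.0193). Calr, calreticulin of the ER lumen, had 22891, 21883 and 22416 against 19381, 18932 and 18990 (1.17-fold, limma adjusted p = 0.0228). For both, the groups did not overlap, but the calls rested on having all libraries. Canx missed the threshold without KO 3 (limma adjusted p = 0.066), wild type 2 (0.0833) or wild type 3 (0.0633). Calr missed it without KO 1 (limma adjusted p = 0.0507), without KO 3 (0.0873), wild type 2 (0.0926) or wild type 3 (0.126), and also without a filter on low genes (0.0643).

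The other 7 folding members did not pass. Hyou1, the nucleotide exchange factor of BiP, had 1723, 1869 and 1860 normalized reads against 1697, 1272 and 1312. Wild type 1 stood close to the KO-labelled values, and the log2 fold change was 0.36 (0.11 to 0.61 at 95%; limma adjusted p = 0.0605); it passed without wild type 1 (log2 fold change 0.49, limma adjusted p = 0.00757) or KO 1 (0.40, limma adjusted p = 0.0446). Manf, a secreted neurotrophic ER protein, had 2950, 2541 and 2638 against 2092, 2359 and 2224 (log2 fold change 0.28, limma adjusted p = 0.0586), with groups that did not overlap, and it passed without KO 2 (limma adjusted p = 0.0352). The DnaJ partners of BiP were Dnajc3 (log2 fold change 0.25, 95% interval 0.07 to 0.44), Dnajb11 (0.18, 0.02 to 0.33) and Dnajb9 (0.04, -0.25 to 0.33). Of these, Dnajb9 alone had overlapping groups, with KO 3 and wild type 1 the lowest libraries at 806 and 791 normalized reads. Sdf2l1 (log2 fold change 0.17, 95% interval -0.12 to 0.46) and Creld2 (0.11, -0.09 to 0.32) overlapped between groups as well.

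**Figure D2:**
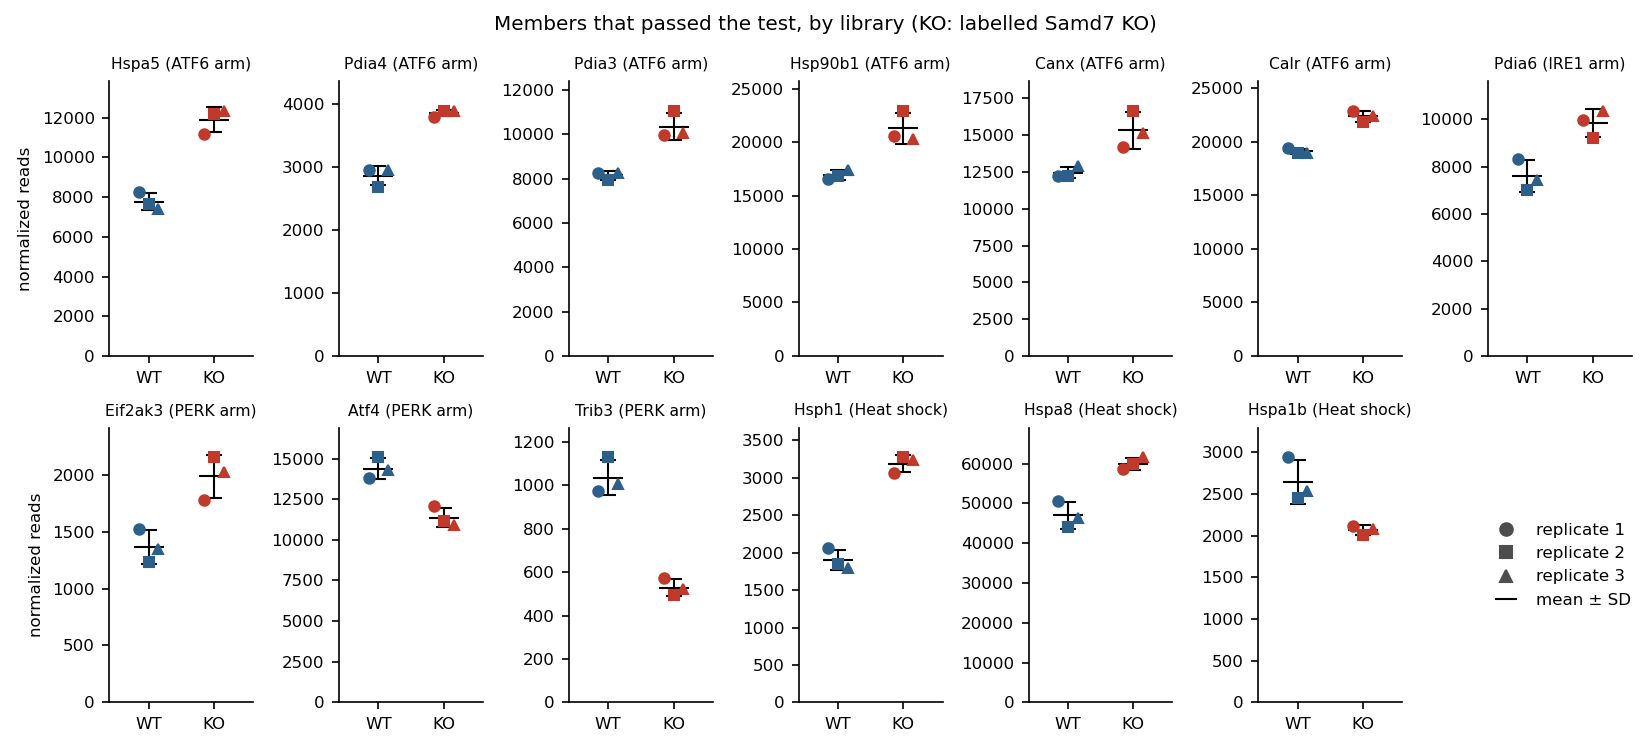
Normalized reads of the 13 members called by limma in each library, with the y axis from 0; circles, squares and triangles are replicates 1, 2 and 3, and bars show the mean and SD of 3 libraries. In all 13 panels the groups do not overlap, with the KO-labelled values on top except for Atf4, Trib3 and Hspa1b.

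For the disposal machinery of the ER no member passed. ER-associated degradation (ERAD) pulls misfolded proteins back to the cytosol for the proteasome. Of its 4 members 0 were called by limma-trend, edgeR or DESeq2. With limma calling 12% of all tested genes, 0 of 4 is near the background share. At an unadjusted p under 0.05, 0 were higher and 1 lower. That gene was Herpud1, a scaffold of the ERAD ubiquitin ligase, with 6477, 6887 and 6830 normalized reads against 8213, 7183 and 7642. All KO-labelled values lay below all wild-type values (log2 fold change -0.19, with -0.35 to -0.03 as 95% interval; limma adjusted p = 0.121). Its promoter holds both the second ER stress element, ERSE-II (ATTGGNCCACG, in 0.0444% of genes of the table), and the ATF4 composite site CARE (TGATGNAA, in 4.51%), letters tied to different arms.
Herpud1 ERSE-II, chr8:94386367-94386397, plus strand: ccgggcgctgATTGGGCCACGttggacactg
Herpud1 CARE, chr8:94386307-94386334, plus strand: ccacggcgggTTGCATCAgcccgcaccc

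The log2 fold changes of the other ERAD members were 0.21 for the adaptor Sel1l (95% interval -0.01 to 0.42), 0.03 for the ligase Syvn1 (-0.18 to 0.24) and -0.04 for the lectin Edem1 (-0.30 to 0.23). Sel1l had 5221, 6822 and 6145 normalized reads against 5553, 4775 and 5388, so that KO 1 sat among the wild-type libraries, and without KO 1 it was called (log2 fold change 0.31, limma adjusted p = 0.0366). Atf6 and Sel1l share this low KO 1 value, and both have long transcripts, of 7246 and 6300 bases. Libraries differed in their bias toward long transcripts, from 0.080 log2 units per doubling of length in KO 2 to -0.025 in KO 1 and -0.079 in wild type 2. With that trend removed, an alternative added after seeing the data, the log2 fold changes were 0.22 for Atf6 and 0.098 for Sel1l. The part of transcript length in the low KO 1 values was not tested.

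In the PERK arm the kinase rose while its downstream genes did not. Trib3 (chromosome 2, 152337425 to 152344060), a pseudokinase induced by ATF4 and CHOP, had the largest absolute log2 fold change of all 37 members. It had 573, 493 and 521 normalized reads in the KO-labelled libraries and 973, 1128 and 1003 in wild type. The KO-labelled values all lay well below wild type, 1.96-fold lower on average (-0.97 ± 0.11 SE on the log2 scale, limma adjusted p = 8.64e-05). Atf4 (chromosome 15, 80255184 to 80257545), the transcription factor at the centre of the integrated stress response, had 12065, 11134 and 10920 against 13781, 15071 and 14284. The groups stood apart, with Atf4 RNA 1.26-fold lower (-0.34 ± 0.07 SE on the log2 scale, limma adjusted p = 0.00671). ATF4 is regulated mainly through translation, which RNA levels do not show.

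The remaining PERK-arm members did not pass. Ddit3, which encodes the stress factor CHOP, had 2544, 2248 and 2589 normalized reads against 2923, 2669 and 2694, lower in all KO-labelled libraries but within the test's error (log2 fold change -0.17, 95% interval -0.36 to 0.02). Ppp1r15a, the phosphatase subunit that reverses eIF2 alpha phosphorylation, had 2459, 2044 and 1858 against 2270, 2561 and 2501. KO 1 overlapped wild type there (log2 fold change -0.21, limma adjusted p = 0.228), and without KO 1 the gene was called lower (-0.32, limma adjusted p = 0.0392). Asns, asparagine synthetase, was level within a narrow interval (log2 fold change -0.06, 95% interval -0.22 to 0.10). Chac1, a glutathione-degrading enzyme, was the most scattered member, at 265, 281 and 395 normalized reads against 455, 253 and 239. Wild type 1 and KO 3 stood above the others, and the interval of its log2 fold change ran from -0.48 to 0.54.

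CARE letters were found in 3 of the 7 PERK-arm promoters (42.9%, against 4.51% of genes of the table), those of Asns, Chac1 and Trib3, and in Herpud1. The Trib3 match lies 15 to 22 bases after the start. The 2 upstream matches are printed here to show that members with the site differed in response: neither Asns nor Chac1 passed, while Trib3 fell.
Asns, chr6:7693215-7693242, minus strand: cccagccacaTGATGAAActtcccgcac
Chac1, chr2:119351039-119351066, plus strand: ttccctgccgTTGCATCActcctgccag

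**Figure D3:**
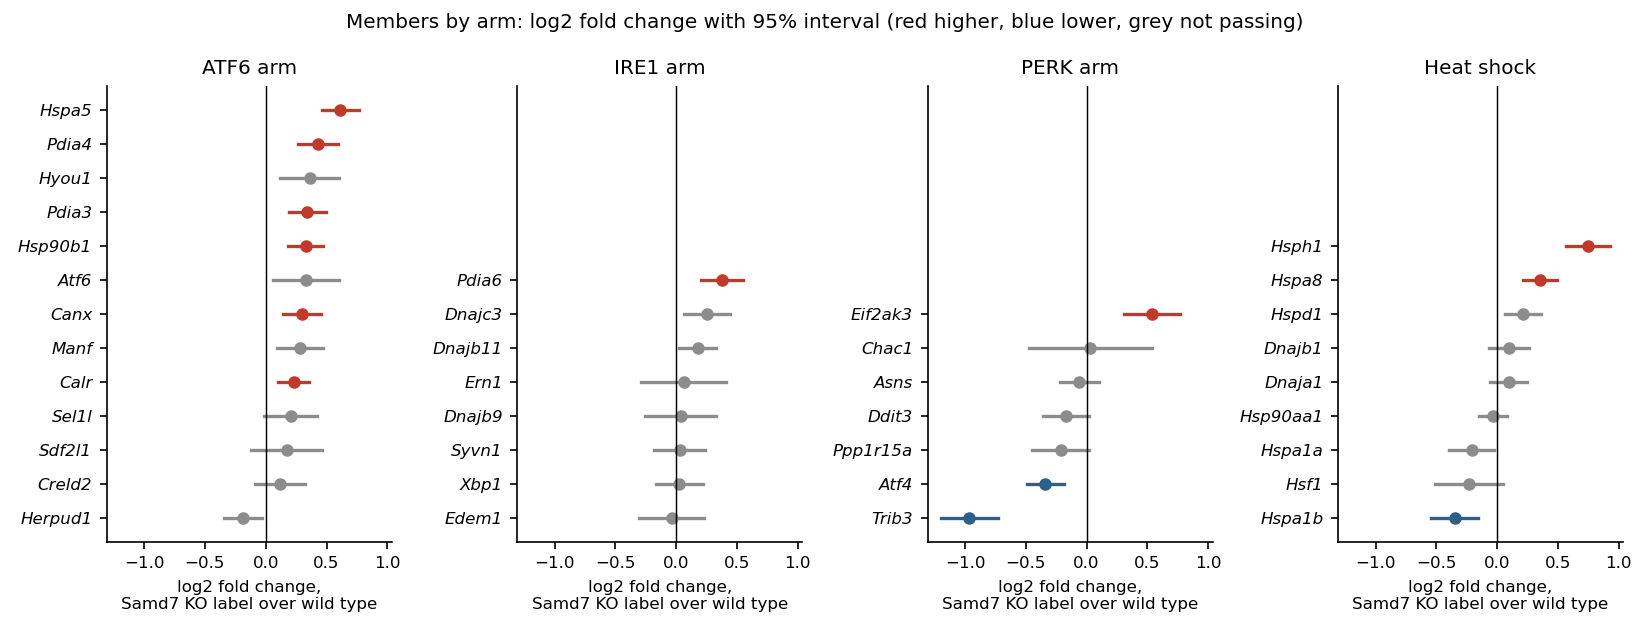
Log2 fold change of each member (KO label over wild type, log2(normalized reads + 1) scale) with its 95% interval, by arm; red is called higher, blue called lower, grey not passing. The ATF6 panel lies to the right of 0 except Herpud1, the PERK panel spans from Trib3 at -0.97 to Eif2ak3 at 0.54, and the heat shock panel from Hspa1b at -0.35 to Hsph1 at 0.75.

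Among heat shock genes, Hsph1 and Hspa8 rose and Hspa1b fell. Of 9 members 2 were called higher, 1 lower and 6 did not pass, with a median log2 fold change of 0.10. Hsph1 (chromosome 5, 149616843 to 149636498), the Hsp110 exchange factor of cytosolic Hsp70, showed the largest rise of all 37 members. It had 3058, 3272 and 3236 normalized reads against 2060, 1845 and 1800, with a wide gap between the groups (1.68-fold, 0.75 ± 0.08 SE on the log2 scale, limma adjusted p = 9.20e-05). Hspa8 (chromosome 9, 40801276 to 40805202), the constitutive Hsp70, was the most abundant member per kilobase of transcript in both groups. It had 58634, 59825 and 61580 against 50706, 44030 and 46430 (1.28-fold, 0.35 ± 0.06 SE on the log2 scale, limma adjusted p = 0.00334), again without overlap.

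Of the stress-inducible Hsp70 pair, Hspa1b fell and Hspa1a did not pass. Hspa1b (chromosome 17, 34956429 to 34959238) had 2118, 2006 and 2081 normalized reads against 2940, 2455 and 2538 (1.28-fold lower, -0.35 ± 0.09 SE on the log2 scale, limma adjusted p = 0.0241). Its neighbour Hspa1a (chromosome 17, 34969359 to 34972156) had 3668, 3204 and 3579 against 4366, 3824 and 3891 (log2 fold change -0.21, with -0.39 to -0.02 as 95% interval; limma adjusted p = 0.140). In both genes all KO-labelled values lay below all wild-type values. Their transcripts share 62.3% of the 50-base windows of Hspa1b, so reads could be split between them; summed, they had 5786, 5210 and 5659 against 7306, 6278 and 6429, 1.20-fold lower. The Hspa1b call ended without KO 3 (limma adjusted p = 0.0793), wild type 1 (0.0802) or wild type 3 (0.0756). Of the exonic bases of Hspa1a, 19% overlap the antisense gene Gm20481, and without a stated strand setting such reads cannot be assigned.

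The other heat shock members stayed near their wild-type levels or did not pass. Hsp90aa1, the inducible cytosolic Hsp90, had the narrowest interval of all (log2 fold change -0.03, 95% interval -0.15 to 0.08), with values of 43576 to 45445 normalized reads against 44845 to 46304. The Hsp40 partners Dnajb1 (log2 fold change 0.10, 95% interval -0.07 to 0.26) and Dnaja1 (0.10, -0.05 to 0.25) were likewise close to 0. Hspd1, the mitochondrial chaperonin Hsp60, had 6021, 6425 and 6151 against 5291, 5300 and 5445, apart in all libraries but short of the threshold (log2 fold change 0.21, limma adjusted p = 0.0623). Hsf1, the master factor of the response, had 3654, 2379 and 3011 against 3667, 3458 and 3325; KO 1 lay within the wild-type range (log2 fold change -0.23, limma adjusted p = 0.284), and without it the gene was called lower (-0.38, limma adjusted p = 0.0287). Of the 50-base windows of Hsp90aa1, Hspa8 and Hspd1, 58.5%, 51.4% and 44.8% also occur in transcripts of other annotated genes, so part of their reads may have been left out or assigned elsewhere by the authors' counting.

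Heat shock elements, searched as GAANNTTCNNGAA, occurred in 2 of the 6 heat shock promoters searched, against 0.662% of genes of the table. Both genes had 2 annotated starts searched. In Hsph1 the match lies just after either start. In Hspd1 a pair of overlapping matches, one on each strand, lies upstream of 1 of the 2 starts. That site is still inside the span of the gene, whose 5′ end is at 55088243.
Hspd1, chr1:55088049-55088081, minus strand: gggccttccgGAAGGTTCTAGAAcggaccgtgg

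The 3 ER arms and heat shock were set side by side by their mean deviation per library. The ATF6 arm stood at 0.22, 0.30 and 0.29 log2 units above the wild-type mean in KO 1, 2 and 3, while the wild-type libraries lay at 0.066, -0.054 and -0.012. The PERK arm stood at -0.16, -0.20 and -0.14 against 0.076, -0.028 and -0.048. For both arms the groups did not overlap, in opposite directions, but the PERK mean no longer separated them when Trib3 was left out. Without it, an alternative added after seeing the data, the other 6 PERK-arm members averaged -0.048, -0.061 and 0.0044 in KO 1, 2 and 3 and 0.10, -0.054 and -0.049 in wild type, and the groups overlapped. Those 6 still include the kinase Eif2ak3, which rose, at 0.38, 0.66 and 0.58 in KO 1, 2 and 3. Whether the genes downstream of the kinase stand apart without Trib3 was not tested. The ATF6 arm without Hspa5, its own member of largest change, still stood apart, at 0.20, 0.27 and 0.26 against 0.064, -0.057 and -0.0078. The IRE1 arm (0.068, 0.14 and 0.13 against 0.054, -0.029 and -0.024) came close to touching and overlapped without Pdia6, and heat shock overlapped (0.10, 0.044 and 0.081 against 0.060, -0.047 and -0.013). The median of all tested genes lay between -0.0072 and 0.0087 in the 6 libraries. Called members numbered 6 higher and 0 lower of 13 in the ATF6 arm, 1 and 0 of 8 in the IRE1 arm, 1 and 2 of 7 in the PERK arm and 2 and 1 of 9 in heat shock, with median log2 fold changes of 0.30, 0.049, -0.17 and 0.10. The counts of 0 lower come from limma-trend; edgeR and DESeq2 also called 0 lower in the ATF6 and IRE1 arms, and 1 gene, Herpud1, was lower at an unadjusted p under 0.05. In the ATF6, IRE1 and PERK arms and heat shock, 46.2%, 12.5%, 42.9% and 33.3% were called, against 12% of all tested genes. The IRE1 arm was thus near the background share. The difference between arms was not tested.

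**Figure D4:**
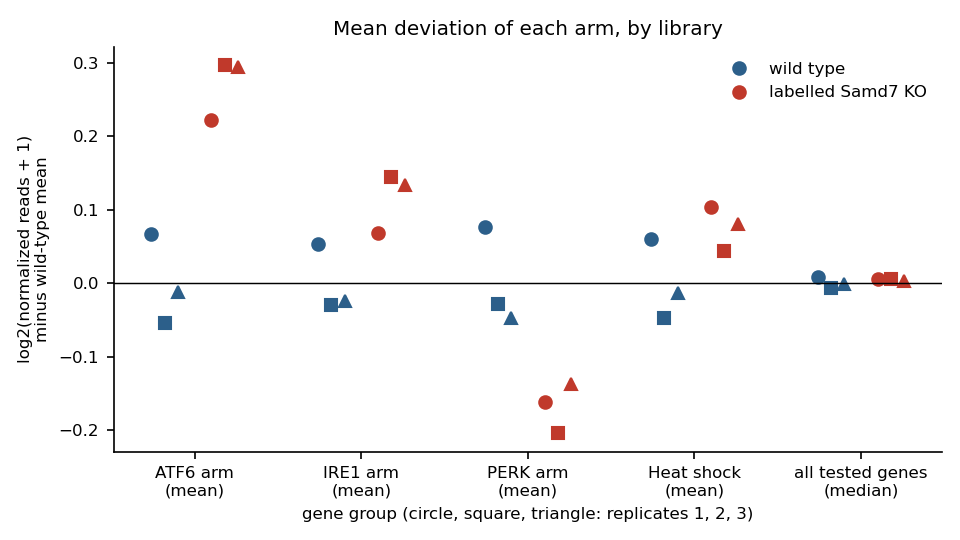
Mean over the members of each arm of log2(normalized reads + 1) minus the wild-type mean, 1 point per library (red labelled Samd7 KO, blue wild type), with the median of all tested genes at the right. The ATF6 arm lies between 0.22 and 0.30 and the PERK arm between -0.20 and -0.14 in the KO-labelled libraries, while the heat shock points of the groups overlap.

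Wider lists of the same pathways were counted in the same fit. Of 33 other ER folding and translocation genes tested, 2 were called higher and 2 lower, near the background share. Pdia5, a further disulfide isomerase, was 1.61-fold lower (means of 1889 ± 245 and 3036 ± 358 normalized reads, SD over 3 libraries; limma adjusted p = 0.00165), and Ero1a, the oxidase that recharges the isomerases, 1.41-fold lower (limma adjusted p = 0.00824). Both therefore went against the direction of Pdia3, Pdia4 and Pdia6. Txndc5, a thioredoxin-domain protein, was 1.22-fold and the signal peptidase subunit Spcs2 1.19-fold higher (limma adjusted p = 0.0313 and 0.0326). Among 22 other ERAD genes 0 were called by limma-trend, edgeR or DESeq2, with 3 higher and 1 lower at an unadjusted p under 0.05. Of all tested genes, limma called 12%. The Txndc5 and Spcs2 calls ended when single libraries were left out, Txndc5 without either KO 2 or KO 3, or wild type 2 or 3 (limma adjusted p = 0.0561, 0.145, 0.134 and 0.136) and Spcs2 without KO 3 or any wild-type library (0.093, 0.0946, 0.0953 and 0.0842).

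Other genes of the integrated stress response, the programme that PERK shares with further eIF2 alpha kinases, had more calls on the lower side. Of 37 tested, 6 were lower and 3 higher, with a median log2 fold change of -0.021. The called share was 24.3%, against 12% of all tested genes (5.21% lower and 6.79% higher). Signs were nearly even, with log2 fold changes above 0 for 18 genes and below 0 for 19. Slc7a3, a cationic amino acid transporter, had 86.9, 86.1 and 108 normalized reads against 157, 206 and 200 (2.0-fold lower, limma adjusted p = 0.00291). Atf3, a stress factor downstream of ATF4, had 683, 538 and 664 against 907, 933 and 956 (1.48-fold lower, limma adjusted p = 0.00566). In both genes the groups stood apart, as they did for Trib3 and Atf4. Ddit4, an inhibitor of mTORC1 signalling, was 1.39-fold lower (limma adjusted p = 0.00884, but 0.0562 without wild type 3). The serine and one-carbon enzymes Shmt2, Phgdh and Mthfd2 were 1.26-, 1.45- and 1.35-fold lower (limma adjusted p = 0.0186, 0.0227 and 0.0270).

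Single libraries decided part of these calls. Shmt2 missed the threshold without wild type 1 or 3 (limma adjusted p = 0.0621 and 0.0747), Phgdh without KO 2, wild type 1 or wild type 3 (0.0649, 0.0755 and 0.0851), and Mthfd2 without KO 3, wild type 2 or wild type 3 (0.0741, 0.0771 and 0.164). The 3 genes on the higher side were the factor Cebpb (1.48-fold), the interferon-induced kinase Eif2ak2 (1.61-fold) and the growth arrest gene Gadd45a (1.36-fold), with limma adjusted p-values of 0.0426, 0.0453 and 0.0473. Cebpb was lost without KO 1, wild type 2 or wild type 3 (limma adjusted p = 0.0845, 0.129 and 0.156). Eif2ak2 was kept only without KO 1 among single libraries left out, with 0.0728 to 0.142 otherwise, and Gadd45a only without wild type 2, with 0.0569 to 0.145 otherwise. With all libraries, Gadd45a also missed the threshold with edgeR (edgeR adjusted p = 0.0527 with TMM and 0.0512 with RLE factors). Its groups overlapped, with KO 3 at 2871 and wild type 2 at 2880 normalized reads. Without a filter on low genes, Eif2ak2 was lost as well (limma adjusted p = 0.0817). Phgdh, Mthfd2, Cebpb, Eif2ak2 and Gadd45a were named after their values were seen.

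In the wider cytosolic list, 2 of 43 genes were called higher and 3 lower, near the background. The risers assist Hsp70 and Hsp90. St13, the Hsp70-interacting protein Hip, had 4533, 4995 and 4551 normalized reads against 3564, 3259 and 3076 (1.42-fold, limma adjusted p = 0.00149). Chordc1, an Hsp90 co-chaperone, was 1.36-fold higher (limma adjusted p = 0.0107, but 0.0572 without KO 3 and 0.0593 without wild type 3). The small heat shock gene Hspb1 was 1.46-fold lower (limma adjusted p = 0.0171, but 0.0570 without wild type 1 and 0.0952 without wild type 3). The ubiquitin gene Ubb, named after its value was seen, was 1.16-fold lower (limma adjusted p = 0.0253), a call that ended without any one of KO 2, KO 3, wild type 1 and wild type 3 (0.0677, 0.0597, 0.0544 and 0.122).

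Of 11 mitochondrial chaperones and proteases, 0 were called higher and 2 lower by limma-trend, edgeR and DESeq2, with 1 higher at an unadjusted p under 0.05. The protease subunit Clpp was 1.20-fold lower (limma adjusted p = 0.0275) and the exchange factor Grpel1 1.19-fold lower (limma adjusted p = 0.0482), opposite in sign to Hspd1. Clpp was lost without KO 3 or any wild-type library (limma adjusted p = 0.0581 to 0.124), and Grpel1 without any one of KO 1, KO 3, wild type 2 and wild type 3 (0.0703 to 0.259).

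In the authors' deposited table, made with DESeq2, 13 members were listed higher and 3 lower with their adjusted p for any change under 0.05, and 0 against a log2 fold change of 1. The additional genes in the authors' deposited table were Atf6, Hyou1 and Manf, at adjusted p-values of 0.0485, 0.0318 and 0.0341. These calls rest on the same libraries.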

How the data were processed

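The submitters' processing notes name STAR 2.7.3a, HTSeq 0.12.4, cutadapt 3.0, SAMtools 1.9, DESeq2 and DRAGEN, and the builds mm10 and GRCm38. Neither the role of each tool nor a strand setting is stated in the labels. The deposited signal holds reads scaled by a size factor, as the values show and per the file headers. Log2 fold changes, their standard errors, Wald scores, p-values and adjusted p-values were also deposited by the authors.

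Dividing by the worth of 1 read returned whole reads for all 166478 values above 0 (100% within 0.01 reads). The main test was limma-trend (limma 3.58.1, R 4.3.3) on log2(value + 1) of genes with at least 10 normalized reads in at least 3 libraries, fitted across all 20277 such genes with two-sided p-values and Benjamini-Hochberg adjustment. Fold changes are ratios of group means; log2 fold changes understate changes of low genes. edgeR 4.0.16 and DESeq2 1.42.0 on recovered reads were alternatives. The limma-trend, edgeR, DESeq2, limma-voom and replicate-block fits were tested on simulated data. Total-read scaling and removal of the length trend were not. edgeR called 2494 genes. Replicates differed by 7.20 to 33.5 times their counting noise, as chi-square over its degrees of freedom.

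The members and lists were chosen with earlier results of these data known. All 37 members, Samd7 and up to 4 called genes with the smallest adjusted p per wider list were named, except 1 gene that is not reported here. Transcript lengths and windows come from GENCODE vM21, positions and promoters from RefSeq GRCm38.p6.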

Additional observations from a re-analysis of the deposited data

How the results depend on the processing

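Of the 13 called members, 9 were called under all 17 alternatives (Hspa5, Hsp90b1, Pdia3, Pdia4, Eif2ak3, Atf4, Trib3, Hspa8 and Hsph1) and 0 turned direction; Calr, Canx, Pdia6 and Hspa1b lost the call in at least 1. Of the other 24, 11 gained a call in at least 1. Limma-voom with sample quality weights called 4650 genes, 16 members higher and 5 lower (ER arms 13 and 4). At an adjusted p under 0.01, an alternative added after seeing the data, 1189 genes and 0 lower heat shock members remained past the threshold. Leaving out single libraries gave 1313 to 3247 genes (1497 without KO 3, 1470 without wild type 2, 1313 without wild type 3), 7 to 12 members higher, 2 to 5 lower, 5 to 10 ER members higher and 0 to 2 heat shock members lower. Scaling to total reads moved the median gene by 0.06 log2 units and called 15 members higher.

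Replicate numbers did not pair the libraries: deviations of same-numbered libraries correlated at -0.30, -0.23 and -0.16 over 14108 genes. With a replicate block 1624 genes were called, with 8 members higher, 2 lower and 0 lower heat shock members; Calr, Canx and Hspa1b missed the threshold there (limma adjusted p = 0.0928, 0.0553 and 0.0570).

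Signs turned for some members near 0. Without the transcript-length trend (added after seeing the data) the log2 fold change was -0.051 for Ern1, -0.036 for Syvn1 and -0.0036 for Dnaja1. With limma-voom it was -0.14 for Dnajb9 and 0.041 for Edem1, and with total-read scaling 0.020 for Edem1 and 0.023 for Hsp90aa1. Chac1 stood at -0.011 with edgeR and TMM factors, -0.014 with RLE factors and -0.012 with DESeq2. Over single libraries left out, the range was -0.087 to 0.22 for Ern1, -0.039 to 0.12 for Xbp1, -0.082 to 0.16 for Dnajb9, -0.092 to 0.071 for Edem1, -0.046 to 0.11 for Syvn1 and -0.15 to 0.33 for Chac1. The cause was not tested for any of these. Lens RNA in wild type 3 and uneven read splitting between near-identical copies limit single values.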

Other observations

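Outside the members, genes whose promoters hold the same letters did not move as a body. Of 29 further genes of the deposited table with an ERSE match, 17 reached the level for a test, 1 was called higher and 0 lower by limma, and their median log2 fold change was 0.058. The 1 gene was Xlr3a, named after its value was seen, at 212 against 92.0 normalized reads (limma adjusted p = 0.00682); Xlr3 genes are near-identical copies, between which reads could be split. Derl3 and Ero1b, ER genes with the match, did not pass (log2 fold changes 0.26 and 0.0098). Some of the tested carriers were low, such as 1700122E12Rik (8.67 normalized reads under the KO label and 14.9 in wild type) and Xlr3c (20.1 and 15.4). 1700122E12Rik lies beside Calr and Alg12 beside Creld2, so their matches may be the sites of those members. Of 405 tested non-member genes with CARE letters, 31 were called higher and 31 lower, and of 77 with heat shock element letters, 4 and 3; called shares were 15.3% and 9.09%, against 12% of all tested genes. UPRE letters, TGACGTGG, were in 0 of 31 member promoters and 0.714% of genes of the table; the 131 tested carriers had 14 called higher and 7 lower.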
